A study of Homo sapiens with 6 samples.

Results

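Genes with shifted transcript usage in ARMC5 knockdown cells were examined, 59 genes of 9882 that could be assessed (0.597%) and of 35810 with a matched transcript. The members were chosen by their measured shares. A transcript's share was its TPM (transcripts per 1000000, a length-corrected abundance) divided by the summed TPM of its gene. A gene could be assessed with at least 100 estimated reads in each of the 6 libraries and at least 2 annotated transcripts. It became a member when the mean share of a transcript differed by at least 0.25 between the conditions and all 3 shARMC5 shares lay on 1 side of all 3 shNT shares. Because the contrast between shARMC5 and shNT made this choice, the differences below describe the members and were not tested.

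RNA was taken from the SPT5-AID line, colorectal adenocarcinoma DLD-1 cells whose elongation factor SPT5 bears an auxin-inducible degron, so both conditions share the tagged SPT5. The cells were infected with lentivirus expressing an shRNA against ARMC5 (shARMC5, n = 3) or a nontargeting shRNA (shNT, n = 3) and selected with puromycin. No auxin is named for these libraries, and ARMC5, an adaptor of the CUL3 ubiquitin ligase, was depleted by knockdown in bulk cells, not deleted. Polyadenylated RNA was sequenced with a kit that does not mark strand, and salmon divided the reads among transcripts. ARMC5 itself had 10.8, 12.0 and 12.9 CPM (reads per 1000000 on genes) in the shARMC5 libraries and 23.0, 25.9 and 26.7 CPM in the shNT libraries, and fell by 1.09 on the log2 scale (SE 0.08, adjusted P = 5.32e-07 from edgeR).

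Most human genes are transcribed into several mRNAs that differ in their start site, exons or polyadenylation site. The balance is set by promoter choice, by SR proteins, hnRNP proteins and the core spliceosome, and by the cleavage and polyadenylation machinery. Isoforms with an early stop codon are removed by nonsense-mediated decay, so a shift in usage can alter the protein or the life of the mRNA without a change in the total. Short reads seldom span a whole transcript, and reads that fit several isoforms are divided among them by a statistical model.

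The stretches below are coding bases from GENCODE 44 transcripts (GRCh38), each written 5′ to 3′ on the strand of the gene. Capitals mark bases that only 1 transcript of a member's gaining and losing pair holds, and lower case marks coding bases beside them. They are shown because in each of these pairs they are the whole difference in coding sequence in GENCODE 44. U2AF1-201 and KIF21B-204 were quantified at a length other than that of the GENCODE 44 model, so the transcripts quantified differ from those printed. U2AF1 encodes the small subunit of the U2 auxiliary factor, which reads the AG at the 3′ splice site. Its pair holds 1 exon or the other, chr21:43100453-43100519 in U2AF1-201 and chr21:43101366-43101432 in U2AF1-202, 67 coding bases each on the minus strand.
U2AF1-201: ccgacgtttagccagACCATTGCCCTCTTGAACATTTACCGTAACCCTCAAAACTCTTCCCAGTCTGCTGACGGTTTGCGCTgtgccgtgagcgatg
U2AF1-202: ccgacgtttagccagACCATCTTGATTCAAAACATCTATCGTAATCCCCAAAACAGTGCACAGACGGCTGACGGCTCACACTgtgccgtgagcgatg
In the other members shown here, 1 transcript holds a stretch that its partner lacks. ARHGAP44 (chr17:12973302-12973319), STK36 (a kinase of cilia and Hedgehog signalling, chr2:218696527-218696589) and WDR31 (a WD-repeat protein, chr9:113331114-113331116) have it in the transcript that gained share. ATF6B (a transcription factor of the endoplasmic reticulum stress response, chr6:32128117-32128125), FDXR (the mitochondrial ferredoxin reductase, chr17:74866545-74866568) and KIF21B (a kinesin motor, chr1:200983056-200983094) have it in the transcript that lost mean share, which in ATF6B overlapped between the groups.
ARHGAP44-203: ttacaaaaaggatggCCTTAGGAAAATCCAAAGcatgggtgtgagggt
STK36-201: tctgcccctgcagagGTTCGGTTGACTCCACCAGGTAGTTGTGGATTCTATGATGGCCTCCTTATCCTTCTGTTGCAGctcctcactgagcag
WDR31-202: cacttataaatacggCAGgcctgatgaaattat
ATF6B-210: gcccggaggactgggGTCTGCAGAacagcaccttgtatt
FDXR-201: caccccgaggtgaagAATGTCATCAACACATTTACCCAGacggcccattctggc
KIF21B-204: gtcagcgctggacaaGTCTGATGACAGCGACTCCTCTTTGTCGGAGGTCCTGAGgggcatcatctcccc

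CAMKK1, a kinase that activates calcium/calmodulin-dependent kinases (chr17:3860315-3894891, minus strand, ENSG00000004660), had the largest difference among the members. The share of CAMKK1-203 was 0.74, 0.756 and 0.945 in the shARMC5 libraries and 0 in all 3 shNT libraries. That of CAMKK1-202 was 0.204, 0.212 and 0 in the shARMC5 libraries and 0.86, 0.898 and 0.868 in the shNT libraries. CAMKK1-203 was therefore the main transcript in every shARMC5 library and was listed at 0 in every shNT library, while CAMKK1-202 changed places with it. The estimated reads on CAMKK1-203 were 172, 181 and 171 in the shARMC5 libraries and 0 in all 3 shNT libraries. The pair starts 2310 bases apart, and CAMKK1-203 has a longer coding sequence, 1596 against 1515 bases.

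Large differences were also found in CRY2 and SLC16A9. CRY2-202 of CRY2, a repressor of the circadian clock, had shares of 0.946, 0.928 and 0.937 in the shARMC5 libraries and 0.828, 0 and 0 in the shNT libraries. All 3 shARMC5 libraries and shNT replicate 1 were high, and the other two shNT libraries were listed at 0, so that the gap between the groups was 0.101. CRY2-202 and its partner CRY2-212 have the same coding sequence and the same exons except for 1 base at the 3′ end. SLC16A9-201 of SLC16A9, a monocarboxylate transporter, had shares of 0.407, 0.617 and 0.729 in the shARMC5 libraries and 0, 0.167 and 0 in the shNT libraries. Its libraries did not overlap, and the pair begins at starts 26152 bases apart with the same coding sequence.

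MID1, a microtubule-bound ubiquitin ligase, and KDM3A, a demethylase of histone H3 lysine 9, were 2 of the 5 members with at least 500 reads in every library. The others were CPLANE1, RRM2 and U2AF1. MID1-205 had shares of 0.69, 0.313 and 0.605 in the shARMC5 libraries and 0 in all 3 shNT libraries. MID1-206 had shares of 0, 0.46 and 0 in the shARMC5 libraries and 0.461, 0.84 and 0.808 in the shNT libraries. MID1-205 was listed above 0 in shARMC5 alone, whereas shARMC5 replicate 2 had nearly as much MID1-206 as shNT replicate 1, the gap being 0.000965. KDM3A-202 had shares of 0.771, 0.693 and 0.396 in the shARMC5 libraries and 0.133, 0.343 and 0 in the shNT libraries, with shARMC5 replicate 3 close to shNT replicate 2. In both genes the 2 transcripts have the same coding sequence and differ in an untranslated exon near the 5′ end.

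TENT5A, a noncanonical poly(A) polymerase, lost TENT5A-203, whose share was 0, 0.143 and 0.0445 in the shARMC5 libraries and 0.491, 0.498 and 0.634 in the shNT libraries. The groups lay far apart, with the highest shARMC5 share well under the lowest shNT share. TENT5A-203 adds 243 coding bases at the start of the coding sequence of TENT5A-201, the transcript that gained. GCH1, GTP cyclohydrolase and the first enzyme of tetrahydrobiopterin synthesis, lost GCH1-204, with shares of 0.366, 0 and 0.47 in the shARMC5 libraries and 0.81, 0.746 and 0.688 in the shNT libraries. All shNT libraries were above all shARMC5 libraries. The estimated reads on the matched transcripts of GCH1 were 390.0, 474 and 1302 in the shARMC5 libraries and 1429, 1097 and 804 in the shNT libraries. A transcript of 2923 bases that GENCODE 44 does not match, listed between those of GCH1, held 943, 1357 and 0 reads in the shARMC5 and 0, 426 and 436 in the shNT libraries. With that transcript added, the highest library had 1.17 times the CPM of the lowest, against 4.28 times without it, and GCH1 no longer met the rule.

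**Figure D1:**
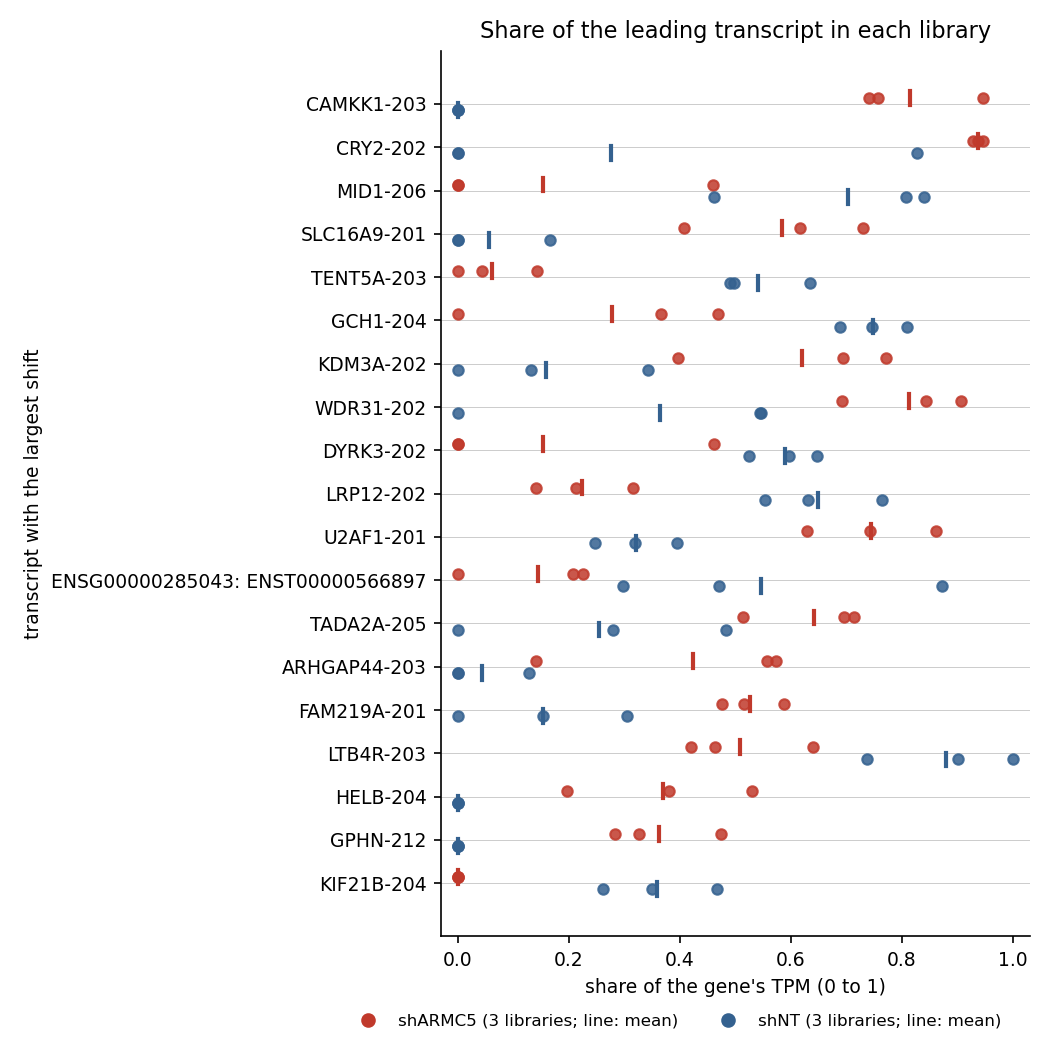
Share of the leading transcript (x axis, fraction of the gene's TPM) for 19 of the 20 members with the largest difference (y axis), 1 point per library, red for shARMC5 and blue for shNT, with a line at each mean of 3. The groups do not overlap by the rule, and CAMKK1-203, HELB-204 and GPHN-212 are listed at 0 in all shNT libraries while KIF21B-204 is listed at 0 in all shARMC5 libraries.

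U2AF1 (chr21:43092956-43107570, minus strand) was the member of the spliceosome list. The share of U2AF1-201 was 0.862, 0.629 and 0.742 in the shARMC5 libraries and 0.319, 0.247 and 0.395 in the shNT libraries. That of U2AF1-202 was 0.0826, 0.282 and 0.185 in the shARMC5 libraries and 0.539, 0.609 and 0.527 in the shNT libraries. By the GENCODE 44 models, every shARMC5 library had mostly the exon of U2AF1-201 and every shNT library mostly that of U2AF1-202. These are the 2 exons printed above. The gene had 558 to 663 reads per library. GRCh38 also holds a near-identical copy of this gene, listed by RefSeq as LOC102724594 with the older symbol U2AF1L5, to which salmon can assign the same reads. GENCODE 44 has no gene of that name, so the division between the copies is uncertain here.

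RRM2, the small subunit of ribonucleotide reductase that supplies deoxynucleotides for DNA synthesis (chr2:10120698-10211725, plus strand), had by far the most reads of the members, 15826 to 25274 per library. RRM2-201, which encodes the protein, had shares of 0.636, 0.554 and 0.533 in the shARMC5 libraries and 0.276, 0.421 and 0.245 in the shNT libraries. RRM2-217, annotated as a retained intron transcript with no coding sequence, had shares of 0.103, 0.135 and 0.123 in the shARMC5 libraries and 0.398, 0.277 and 0.45 in the shNT libraries. RRM2-201 was higher and RRM2-217 lower in every shARMC5 library. The 2 transcripts have the same introns and differ by 13 exonic bases in all, 9 at the start and 4 at the end. Summed, they had 0.739, 0.69 and 0.656 in the shARMC5 libraries and 0.674, 0.699 and 0.696 in the shNT libraries, so the groups overlapped and the means differed by 0.00549.

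**Figure D2:**
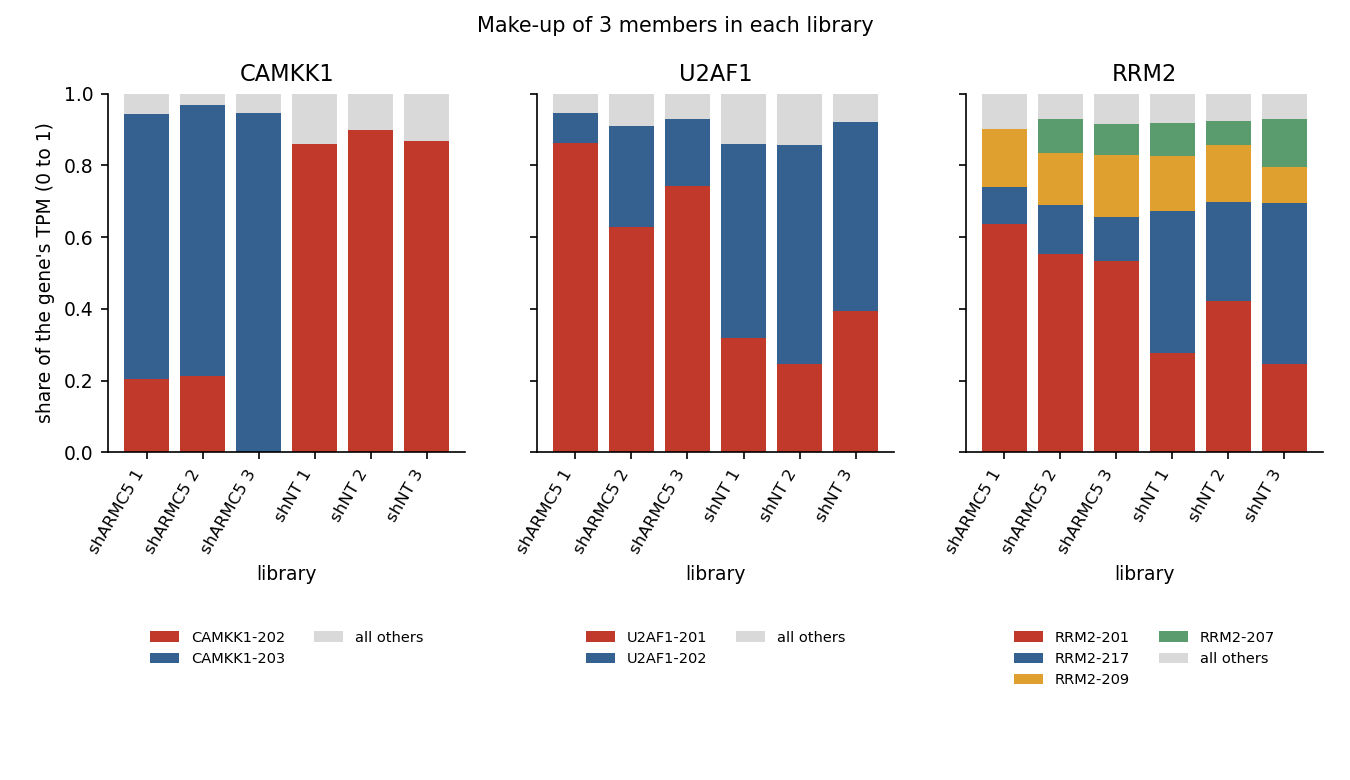
Stacked shares of the transcripts of CAMKK1, U2AF1 and RRM2 (y axis, fraction of the gene's TPM) in each of the 6 libraries (x axis). CAMKK1-203 appears in the 3 shARMC5 libraries alone, U2AF1-201 and U2AF1-202 change in opposite directions, and RRM2-201 and RRM2-217 add up to a like share in all 6 libraries.

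LRP12-202 of LRP12, a receptor of the LDL receptor family, had shares of 0.315, 0.214 and 0.141 in the shARMC5 libraries and 0.554, 0.631 and 0.764 in the shNT libraries. DYRK3-202 of the kinase gene DYRK3 had shares of 0, 0 and 0.462 in the shARMC5 libraries and 0.597, 0.525 and 0.646 in the shNT libraries. Both were lower in every shARMC5 library, LRP12 with well separated groups and DYRK3 with shARMC5 replicate 3 close to the shNT libraries. LTB4R-203 of LTB4R, a leukotriene B4 receptor, had shares of 0.64, 0.42 and 0.464 in the shARMC5 libraries and 0.737, 1.0 and 0.902 in the shNT libraries. It was lower in every shARMC5 library. ARHGAP44-203 had shares of 0.558, 0.573 and 0.141 in the shARMC5 libraries and 0, 0.129 and 0 in the shNT libraries, where shARMC5 replicate 3 and shNT replicate 2 differed by 0.0124. KIF21B-204 had shares of 0 in all 3 shARMC5 libraries and 0.262, 0.35 and 0.467 in the shNT libraries. It adds 39 coding bases that KIF21B-202 lacks.

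The leading 20 also held TADA2A, HELB, WDR31 and FAM219A. TADA2A-205 of TADA2A, a subunit of histone acetyltransferase complexes, had shares of 0.696, 0.513 and 0.714 in the shARMC5 libraries and 0, 0.483 and 0.28 in the shNT libraries. The groups were separated by 0.0305, with 1 shNT library listed at 0. They overlapped with shares from estimated reads (difference 0.337) and from reads over annotated length (0.372). HELB-204 of the DNA helicase gene HELB, a transcript annotated for nonsense-mediated decay, had shares of 0.196, 0.529 and 0.381 in the shARMC5 libraries and 0 in all 3 shNT libraries. Its estimated reads were 17.5, 61.2 and 21.6 in the shARMC5 libraries and 0 in all 3 shNT libraries. WDR31-202 had shares of 0.843, 0.906 and 0.691 in the shARMC5 libraries and 0.545, 0.546 and 0 in the shNT libraries, and FAM219A-201 of FAM219A had shares of 0.587, 0.515 and 0.475 in the shARMC5 libraries and 0.153, 0.305 and 0 in the shNT libraries. In both, all 3 shARMC5 libraries were higher and 1 shNT library was listed at 0.

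Short transcripts gave large shares from few reads, since TPM divides the reads by the effective length. GPHN-212 of GPHN, the gephyrin scaffold of inhibitory synapses and an enzyme of molybdenum cofactor synthesis, has 404 bases. Its shares were 0.474, 0.283 and 0.327 in the shARMC5 libraries and 0 in all 3 shNT libraries. Its estimated reads were 20.9, 12.8 and 10.3 in the shARMC5 libraries and 0 in all 3 shNT libraries, so its share in shARMC5 rested on few reads. ATP2A1-206 of the calcium pump gene ATP2A1, 195 bases long, had shares of 0 in all 3 shARMC5 libraries and 0.388, 0.254 and 0.31 in the shNT libraries. They came from at most 5.63 reads in any shNT library. HSPG2-214 of HSPG2, the basement membrane proteoglycan perlecan, had shares of 0.219, 0.297 and 0.336 in the shARMC5 libraries and 0 in all 3 shNT libraries. Its reads were 12.4, 25.1 and 14.0 in the shARMC5 libraries and 0 in all 3 shNT libraries, out of 429 to 1172 reads on the gene. Of the leading transcripts, 10 of 59 (16.9%) were under 1000 bases, against 37.9% of those in other genes, a lower share.

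ENSG00000285043 shares exons with ALDOA, which had a mean of 37383 reads per library, so the reads it received are uncertain. Its transcript ENST00000566897 had shares of 0.225, 0 and 0.208 in the shARMC5 libraries and 0.297, 0.872 and 0.47 in the shNT libraries. The shNT libraries were higher, with shNT replicate 2 far above the others. UTY, a Y-linked gene, was also a member, and its values are not printed. In all, 12 of the 59 members had exons overlapping another gene with reads, 6 of them on the same strand, and reads of overlapping genes cannot be told apart by strand here. The 6 were ENSG00000285043, LTB4R, RWDD3, ENSG00000272410, BDH2 and SCAI. Overlaps were not counted for the other assessed genes, so nothing about the members is read from these counts.

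PTBP2, the neuronal relative of the splicing repressor PTBP1, was the member of the lists of hnRNP proteins and known alternatively spliced genes. PTBP2-203 had shares of 0.421, 0.478 and 0.419 in the shARMC5 libraries and 0.391, 0.152 and 0 in the shNT libraries. The lowest shARMC5 library was 0.0278 above the highest shNT library, shNT replicate 1. PTBP2-201 moved in the opposite direction but overlapped, with 0, 0.090 and 0.345 in the shARMC5 libraries and 0.229, 0.401 and 0.549 in the shNT libraries. SCAI, a suppressor of invasion that acts on transcription, had shares of SCAI-202 of 0.421, 0.464 and 0.476 in the shARMC5 libraries and 0.109, 0.185 and 0.294 in the shNT libraries. SCAI-205, annotated for nonsense-mediated decay, had shares of 0 in all 3 shARMC5 libraries and 0.231, 0.347 and 0.191 in the shNT libraries. The decay transcript was listed at 0 in shARMC5, on 30.3 to 72.9 reads in shNT. Exons of SCAI overlap those of GOLGA1 on the same strand. GOLGA1 had a mean of 1177 reads per library and SCAI 536, so the reads SCAI received are uncertain.

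CPLANE1, a gene of ciliary assembly, also involved a transcript annotated for nonsense-mediated decay. CPLANE1-201 had shares of 0.30, 0.194 and 0.122 in the shARMC5 libraries and 0.441, 0.416 and 0.641 in the shNT libraries. CPLANE1-205, which encodes the long protein, had shares of 0.281, 0.303 and 0.44 in the shARMC5 libraries and 0.0549, 0.216 and 0 in the shNT libraries. The decay transcript was lower and the coding transcript higher in every shARMC5 library. The difference of CPLANE1-201 went from -0.294 to -0.215 with unmatched transcripts added and to -0.223 without shNT replicate 3, both short of the rule. MAGT1, a subunit of the oligosaccharyltransferase complex and a magnesium transporter, gained MAGT1-203, annotated as a retained intron transcript of 959 bases. Its shares were 0.451, 0.219 and 0.0901 in the shARMC5 libraries and 0 in all 3 shNT libraries. They came from 55.2 to 72.7 reads in shARMC5, while the reads on the gene ranged from 415 in shARMC5 replicate 1 to 2838 in shARMC5 replicate 3.

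COQ2, FDXR, ATF6B and IMPACT were among the members with the most reads whose coding sequence differs. Their means were 463, 448, 572 and 507 reads per library, against a median of 1372 over all assessed genes. COQ2-206 of COQ2, an enzyme of coenzyme Q synthesis, had shares of 0.841, 0.851 and 0.773 in the shARMC5 libraries and 0, 0.746 and 0.755 in the shNT libraries. The 2 other shNT libraries lay just under the shARMC5 libraries, and shNT replicate 1 was listed at 0. FDXR-201 had shares of 0.616, 0.476 and 0.557 in the shARMC5 libraries and 0.908, 0.74 and 0.789 in the shNT libraries. All shNT libraries were higher. ATF6B-209 had shares of 0.448, 0.511 and 0.176 in the shARMC5 libraries and 0, 0.062 and 0 in the shNT libraries, and the estimated reads on the gene were 328, 444 and 678 in the shARMC5 libraries and 393, 1449.6 and 136 in the shNT libraries. ATF6B-210, the transcript with the largest loss of mean share, had 0, 0 and 0.348 in the shARMC5 libraries and 0.638, 0.641 and 0 in the shNT libraries, so its groups overlapped and shNT replicate 3 was listed at 0. The highest library had 9.28 times the CPM of the lowest. IMPACT-206 of IMPACT, an inhibitor of the kinase GCN2, had shares of 0.201, 0.362 and 0 in the shARMC5 libraries and 0.451, 0.403 and 0.472 in the shNT libraries. Here shARMC5 replicate 2 was 0.0418 under the lowest shNT library.

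The other members had absolute share differences between 0.255 (RASGEF1B) and 0.358 (SERPINI1). Higher in shARMC5 were the leading transcripts of SERPINI1, STK36, DAB2, ZSCAN2, C3orf18, ADGRF4, LYPD6B, CDYL2, STRADA, ZNF185 and RASGEF1B. Lower were those of CYP20A1, ANKRD36, RWDD3, PLEKHG1, ADCY7, RCBTB2, ZNF225, INPP5J, ZNF484, TCN2, ENSG00000272410, BDH2, TSPAN9, CDK20, LFNG, RELL2 and ST3GAL5. SERPINI1 encodes neuroserpin, ADGRF4 an adhesion receptor, ADCY7 an adenylyl cyclase, TCN2 transcobalamin, which carries vitamin B12, and LFNG a glycosyltransferase that modifies Notch.

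Several genes lay close to the threshold. Just inside it were MAGT1 (0.254), IMPACT (-0.255) and RASGEF1B (0.255). Just outside were PLXND1-216 of PLXND1 (0.2499), KLF13-201 of KLF13 (-0.249) and TRDMT1-201 of TRDMT1 (0.249). KLF13-201 had shares of 0.69, 0.639 and 0.661 in the shARMC5 libraries and 1.0, 1.0 and 0.738 in the shNT libraries, separated like those of the members. Of the 115 assessed genes with a difference of at least 0.25, 56 overlapped between the groups. The largest of these was C3orf33-201 of C3orf33, with 0.929, 1.0 and 0 in the shARMC5 libraries and 0 in all 3 shNT libraries. It was high in shARMC5 replicates 1 and 2 and listed at 0 elsewhere.

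Some differences depended on how a share was computed. With shares from estimated reads, which are not divided by length, the difference became more than 1.5 times smaller in 14 members. It went from -0.435 to -0.234 in DYRK3, from -0.372 to -0.109 in LTB4R, from 0.369 to 0.153 in HELB and from 0.362 to 0.044 in GPHN. Near the threshold it became 0.0768 in MAGT1, -0.0589 in IMPACT and 0.067 in RASGEF1B. The others were SCAI (0.0814), SERPINI1 (0.211), ZSCAN2 (0.124), ATP2A1 (-0.0172), CDYL2 (0.0529), HSPG2 (0.0263) and BDH2 (-0.0974). In STK36 alone it became more than 1.5 times larger, from 0.357 to 0.748. With these shares the groups overlapped in TADA2A, COQ2, PTBP2, ANKRD36, ADCY7 and CDYL2. With reads over annotated length they overlapped in TADA2A and CDYL2.

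In 12 members leaving out 1 library changed the difference by more than 1.5 times, each time to a smaller value. Without shARMC5 replicate 1 it was 0.155 in MAGT1, and without shARMC5 replicate 2 it was -0.0995 in LFNG. Without shARMC5 replicate 3 it was -0.161 in IMPACT, 0.224 in ZSCAN2, -0.186 in PLEKHG1, -0.164 in ADCY7 and 0.181 in CDYL2. Leaving out shNT replicate 1 gave 0.0716 in COQ2 and -0.187 in RCBTB2. The difference was -0.239 in ENSG00000285043 without shNT replicate 2, and 0.268 in WDR31 and 0.168 in PTBP2 without shNT replicate 3.

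Across the members, the leading transcript was higher in shARMC5 in 29 and lower in 30, with a median absolute difference of 0.323. At least 1 transcript with groups that did not overlap was present in 4116 of the 9882 assessed genes (41.7%), of which those with a difference of at least 0.25 in such a transcript are the members. The gap between the nearest libraries of the 2 conditions had a median of 0.114 and was under 0.05 in 10 members. The leading transcript was listed at 0 in at least 1 library in 44 of the 59 members (74.6%) and in 29.7% of the other assessed genes. It was listed at 0 throughout 1 condition in 13 members (22%, other genes 8.96%): CAMKK1, HELB, GPHN, SERPINI1, HSPG2, RASGEF1B and MAGT1 in shNT, and UTY, KIF21B, ATP2A1, ZNF225, CDK20 and ST3GAL5 in shARMC5.

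Members had few reads. Their mean per library ranged from 119 to 18910 with a median of 290.2, against a median of 1372 over all assessed genes, and 44 of 59 (74.6%) had a mean under 500, against 19.4%. The members were 3.67% of the genes with 100 to 200 reads, 1.89% of those with 200 to 500, 0.624% of those with 500 to 1000 and 0.0417% of those with 1000 to 5000. RRM2 was the member with more than 5000. The standard deviation of a share pooled over both conditions, at its highest among the transcripts of a gene, had a median of 0.166 in members and 0.0542 in the other assessed genes (pooled SD, n = 3 per condition). The summed reads of the matched transcripts, in CPM, varied by more than 2 times between the highest and lowest library in 6 members (10.2%): GCH1, ATF6B, STK36, CYP20A1, HSPG2 and MAGT1. This held for 0.509% of the other genes. With unmatched transcripts added, GCH1 left this group, which was then 5 members (8.47%) and 0.428% of the other genes. The part of read depth in the share differences was not tested.

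**Figure D3:**
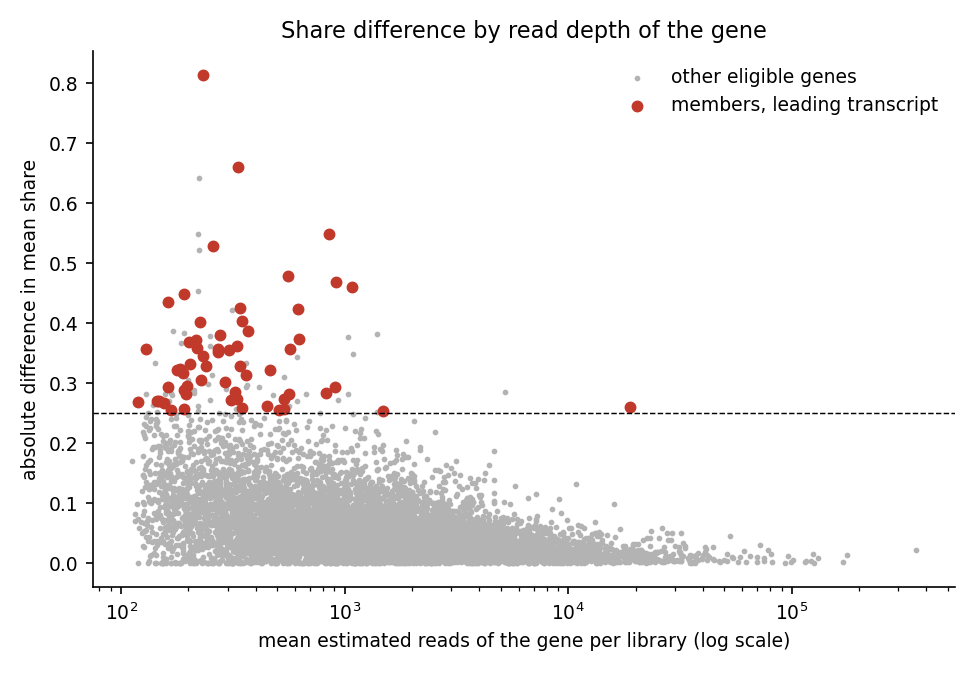
Absolute difference in mean share (y axis) against the mean estimated reads of the gene per library (x axis, log scale), 1 point per gene, red for the 59 members and grey for the other assessed genes, with a dashed line at 0.25. Most members lie between 100 and 1000 reads, and RRM2 is the single member above 5000.

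The same rule was applied to the 9 other ways of dividing the 6 libraries into 3 and 3, which mix the conditions. They gave between 49 and 67 genes, with a median of 57, against 59 for the division by condition. In 3 of the 9 the count was at least 59, and in 2 it was above 59. Of the members, 14 also met the rule in at least 1 of these divisions. These counts are descriptions of the 6 libraries.

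**Figure D4:**
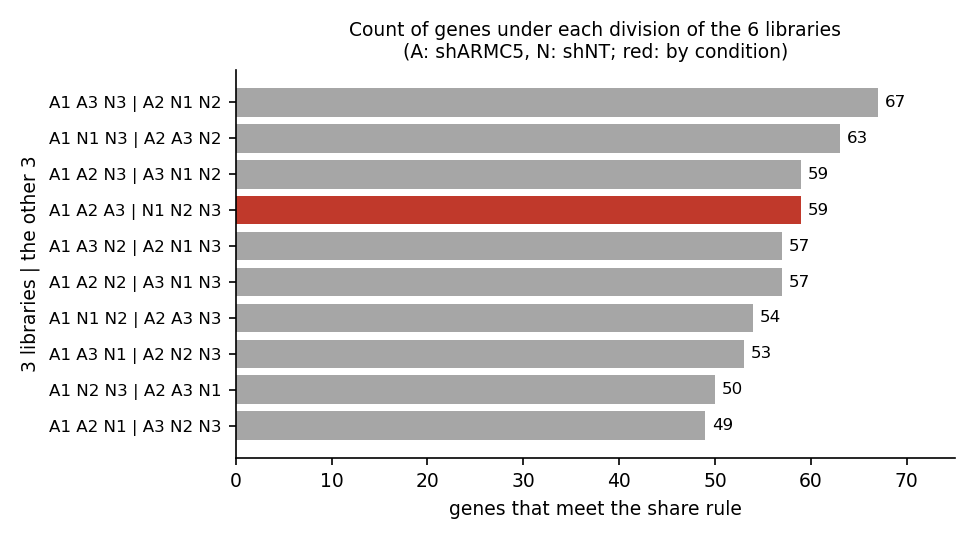
Number of genes that met the share rule (x axis) for each of the 10 divisions of the 6 libraries into 3 and 3 (y axis; A1 to A3 are shARMC5 and N1 to N3 are shNT replicates). The division by condition (red, 59 genes) lies within the range of the others (grey, 49 to 67).

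Libraries that had not entered the choice were then examined. In each of 9 ways, 1 library of each condition was left out and the rule was applied to the other 4 libraries, which chose 165 to 208 genes with a median absolute difference of 0.305 to 0.322. In the pair of libraries left out, the leading transcript of the chosen genes differed in the same direction in 45.4% to 51.9% of the genes. The difference reached 0.25 in that direction in 11.4% to 18.8%. The median difference in the libraries left out, signed by the direction of the choice, was between 0 and 0.00856. Counted in genes, the direction was the same in a median of 89 over the 9 ways, opposite in 83 and without a difference in 19, and the same direction outnumbered the opposite in all 9 ways, which share libraries.

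The structure of the transcripts was not used by the rule. In each gene the transcript with the largest gain of mean share was compared with the one with the largest loss. In members these pairs had a median of 224 exonic bases that only 1 of the 2 holds, against 1373 in the other 9725 assessed genes with such a pair and 1402 in those with a mean under 500 reads. They differed by at most 50 bases in 8 members (13.6%) and in 1.42% of the other genes, and by at most 200 bases in 28 members (47.5%) and in 9.38% of the others. The pairs of the 8 were CRY2 (1 base), WDR31 (9), RRM2 (13), GCH1 (15), ATF6B (16), FAM219A (27), ADCY7 (40) and RASGEF1B (47). These counts rest on the GENCODE 44 models, and 151923 of the 165533 matched transcripts had the same version as quantified. Others can differ from their model. As quantified, HELB-204 and HELB-201 had 3432 and 12866 bases, while their models differ by 192. CYP20A1-201 was quantified at 1949 bases, yet its model holds 9748 that CYP20A1-205 lacks. ADCY7-202 and ADCY7-201 were quantified at 6213 and 6138 bases. The fewer bases tell 2 transcripts apart, the fewer reads can be assigned to 1 of them alone, and the part of this in the differences was not tested.

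**Figure D5:**
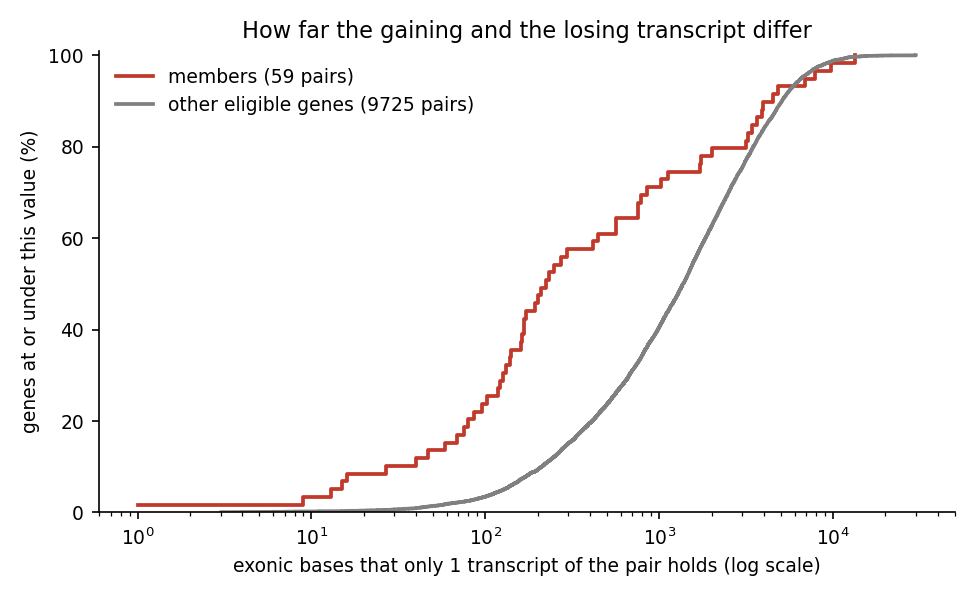
Cumulative percentage of genes (y axis) by the number of exonic bases that only 1 transcript of the gaining and losing pair holds (x axis, log scale), in red for the 59 members and in grey for 9725 other assessed genes. The curve of the members rises earlier, with medians of 224 and 1373 bases.

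When transcripts of a gene that differ by at most 50 exonic bases were merged, 51 genes met the rule, all of them members, and the 8 genes above no longer did. In these 8 the merge joined the gaining transcript with the losing one, so a smaller difference followed from the merge itself. CRY2 merged in this way had 0.946, 0.928 and 0.937 in the shARMC5 libraries and 0.828, 0.87 and 0.731 in the shNT libraries. The libraries were still separated, but the difference in means was 0.128. WDR31 had 0.843, 0.906 and 0.691 in the shARMC5 libraries and 0.545, 0.59 and 0.706 in the shNT libraries, and its groups overlapped, with shNT replicate 3 above shARMC5 replicate 3. FAM219A had 0.654, 0.734 and 0.696 in the shARMC5 libraries and 0.413, 0.816 and 0.702 in the shNT libraries, and its difference was 0.0513. ATF6B had 0.448, 0.511 and 0.523 in the shARMC5 libraries and 0.638, 0.703 and 0 in the shNT libraries, a difference of 0.047. The groups overlapped in both genes. The difference was -0.127 in GCH1, -0.0506 in ADCY7 and 0.105 in RASGEF1B, also with overlapping groups.

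By the annotation, neither the start nor the end differed by more than 100 bases in 30 of the 59 member pairs (50.8%). For the other genes, the pairs in this paragraph were the transcripts with the highest mean shares, not the gaining and losing ones. Of those pairs, 16.6% had neither end apart. The percentages given for others therefore describe pairs chosen in another way, and no difference from the members is read from them. Starts differed in 22 (37.3%, others 51.9%) and ends in 19 (32.2%, others 69.9%). Introns differed in 50 (84.7%, others 82.7%). Both transcripts were protein coding in 43 pairs, with a different coding sequence in 33 (55.9%, others 49.3%) and the same in 10 (16.9%, others 10.1%). A transcript annotated for nonsense-mediated decay was in 7 pairs (11.9%, others 12.8%), and a retained intron transcript in 3 (5.08%, others 12.5%): CDK20, RRM2 and MAGT1. The transcript that Ensembl marks as canonical gained in 16 members, lost in 20 and was neither in 23.

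Gene-level expression was compared with edgeR's quasi-likelihood test on reads summed per gene, in which 1064 of 13737 genes (7.75%) had an adjusted P value under 0.1. In all, 5 of the 59 members were among these, 2 higher, where 4.44% of all genes were called, and 3 lower, where 3.30% were. DAB2, a clathrin adaptor, had 11.5, 11.7 and 12.5 in the shARMC5 libraries and 7.62, 7.43 and 7.24 in the shNT libraries, in CPM, a log2 fold change of 0.68 (SE 0.09). STK36 had 6.5, 6.16 and 5.15 in the shARMC5 libraries and 10.8, 10.9 and 12.5 in the shNT libraries, in CPM, a log2 fold change of -0.93 (SE 0.11). In both genes the 3 shARMC5 libraries lay on 1 side of the shNT libraries. The log2 fold change was 0.11 (SE 0.03) for RRM2, -0.45 (SE 0.13) for LFNG and -0.60 (SE 0.14) for HSPG2. When the average transcript length of a gene was entered as an offset, 234 genes (1.70%) were called, among them 2 members, STK36 and TADA2A. The median log2 fold change was -0.04 over the members and -0.00142 over all genes tested.

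Transcript usage was also fitted across all genes with edgeR's diffSpliceDGE, which sets each shift against the spread between libraries. Of 9082 genes tested, 108 (1.19%) were called, among them 14 of the 56 members tested: CAMKK1, KIF21B, HELB, HSPG2, LRP12, ADGRF4, CDK20, STK36, SERPINI1, GPHN, RRM2, SCAI, UTY and ZNF225. limma's diffSplice called 12 genes (0.132%), of which 3 were members, LRP12, ADGRF4 and RRM2. ADGRF4-202 had shares of 0.67, 0.563 and 0.642 in the shARMC5 libraries and 0.277, 0.393 and 0.22 in the shNT libraries, with the groups well apart. U2AF1, KDM3A and PTBP2 were not called by either. Since the same contrast chose the members, nothing is read from these counts.

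The regulators of splicing and RNA processing were examined for shifted usage and for expression. Of the 13 assessed SR protein genes none was a member, and the median of their largest share difference was 0.0230, against 0.0417 over all assessed genes. Of 24 hnRNP genes PTBP2 was a member (median 0.0142), and of 46 genes of the core spliceosome U2AF1 was (median 0.0227). No member was found among 29 tissue splicing regulators (median 0.0300), 23 genes of cleavage and polyadenylation (0.0349) or 17 of nonsense-mediated decay (0.0251). Of 57 known alternatively spliced genes PTBP2 was a member (0.0377). ARMC5 itself was not a member, its largest difference being -0.14 for ARMC5-204, with overlapping groups.

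At the gene level, none of 13 SR protein genes, 33 tissue splicing regulators and 17 genes of nonsense-mediated decay was called by edgeR or by DESeq2, and 1, 4 and 2 of them had an unadjusted P value under 0.05 in edgeR, beside 18.1% of all genes tested. With a replicate block, which called 1766 of all 13737 genes, edgeR called 2 of the tissue regulators and 1 gene of nonsense-mediated decay. It then called 4 hnRNP genes higher and 1 lower, 4 spliceosome genes higher and 3 lower, and 2 cleavage and polyadenylation genes higher. Of the known alternatively spliced genes it called 16 higher and 5 lower. The calls that follow are without the block, where 7.75% of all genes were called. Of 27 hnRNP genes, HNRNPAB rose (log2 fold change 0.10, SE 0.03, adjusted P = 0.0469 from edgeR) and PTBP3 fell (-0.13, SE 0.03, adjusted P = 0.0203 from edgeR). Of 49 genes of the core spliceosome, SNRPA1 of the U2 snRNP rose (0.14, SE 0.04, adjusted P = 0.0243 from edgeR) and the speckle protein gene SON fell (-0.13, SE 0.04, adjusted P = 0.0992 from edgeR). CLP1, a kinase of the cleavage machinery, was the gene called of 25 in its list (0.21, SE 0.07, adjusted P = 0.0906 from edgeR). None of these 5 genes was called with the offset for transcript length. DESeq2 called 4 hnRNP genes higher and 1 lower, and none of the cleavage and polyadenylation list, of which 2 had an unadjusted P value under 0.05 in edgeR. Of 59 known alternatively spliced genes tested, 8 rose and 1 fell, none of them a member, beside 7.75% of all genes called. With the offset 2 were called, both higher. They included the apoptosis regulator BCL2L1 (0.17, SE 0.03, adjusted P = 0.00128 from edgeR) and the tropomyosin gene TPM1 (0.18, SE 0.03, adjusted P = 0.0026 from edgeR), and the gene that fell was the catenin gene CTNND1 (-0.11, SE 0.03, adjusted P = 0.0229 from edgeR), not called with the offset.

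The libraries held between 26201112 and 40866478 reads on transcripts, and 2.96% to 3.04% of them fell on the 11923 of 177456 transcripts that matched no GENCODE 44 gene. No library stood apart in its normalization factor, between 0.992 and 1.02. Of 11 matched epithelial and colorectal markers 8 were above 1 TPM in every library (sums of 8549 to 8852 TPM in shARMC5 and 7559 to 8071 in shNT), and none of the fibroblast, leukocyte or endothelial markers was. Of the 8, KRT18 (log2 fold change 0.25), KRT8 (0.18) and KRT19 (0.11) rose and VIL1 fell (-1.30, adjusted P = 2.77e-06 from edgeR), with 2 higher and 1 lower with the offset, and the part of this in the share differences was not tested. In bulk RNA, fewer cells of a type and less RNA per cell cannot be told apart.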

How the data were processed

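The 6 RNA-seq libraries were grouped by their labels into shARMC5 and shNT. Per the submitters' processing notes, trimming was by cutadapt 4.2, transcript abundance came from salmon 1.9.0, and the build was hg38. The authors set salmon to correct for GC bias. The deposited files hold, per transcript, estimated counts of reads and TPM, both without normalization between libraries, besides length and effective length. Shares were made from the TPM as deposited. Estimated counts were summed per gene or kept per transcript and rounded for the fits.

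Identifiers were matched without version to GENCODE 44 (GRCh38), which gave 165533 of 177456 transcripts, and the 2.96% to 3.04% of reads per library that fell on other transcripts were left out. The version was the same for 151923 of the matched transcripts. For the rest, the GENCODE 44 model can differ from the transcript quantified. Gene-level tests used edgeR 4.0.16 (glmQLFit, robust, TMM, condition as the only term) in R 4.3.3, on genes that reached 10 counts in 3 or more libraries. Usage was fitted with edgeR's diffSpliceDGE on transcripts with at least 10 estimated reads in at least 3 libraries, with the diffSplice of limma 3.58.1 as an alternative. P values were adjusted by Benjamini-Hochberg over all genes tested, with a threshold of 0.1, and DESeq2 1.42.0 was an alternative. On simulated data with known changes diffSpliceDGE made more false calls than its threshold allows, so its count is given beside limma's. The study defines its N as biological replicates (or genes tested), but the labels do not say whether the libraries came from separate cultures, and P values measure the spread between these samples. Intervals on single shares were not made, since the division of reads by salmon has an error that these files do not give. With about 100 to 500 reads on most members, counting error alone is large for any transcript with a small part of them.

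The members and the gene lists were chosen with earlier results of these data known. The genes named with values are the 20 members with the largest difference except UTY, the 5 with the most reads, the 3 just inside and the 3 just outside the threshold, members of a gene list, ARMC5, called genes of the RNA processing lists, and the 10 members with the most reads whose coding sequence differs. Other members are named to account for all of them or behind a count of 5 or fewer, and members that moved by more than 1.5 times, SERPINI1, ADGRF4, ATP2A1, C3orf33, SCAI, STK36, DAB2 and 4 epithelial markers were given values after these were seen. Alternatives were other share definitions, thresholds, read minimums, filters, scalings, a replicate block, and each library left out. Merged transcripts, libraries whose shares were left out of the choice, exonic differences and gene levels with unmatched transcripts were added after the data were seen. Tables and plots were made with Python 3.11.15, numpy 2.4.6, pandas 2.3.3 and matplotlib 3.10.9.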

Additional observations from a re-analysis of the deposited data

How the results depend on the processing

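The count of 59 members depended on the rule. It was 121 at a share difference of 0.20, 36 at 0.30, 95 with at least 50 reads per library and 5 with at least 500. With 1 library left out it was between 108 (without shNT replicate 1) and 132 (without shARMC5 replicate 2). Among these genes were 48 to 53 of the members. The rule then sets 3 shares against 2, and the part of this in the rise was not tested. It was 51 with shares from estimated reads (34 of them members), 55 with reads over annotated length (52), 58 with unmatched transcripts added (57) and 51 with near-identical transcripts merged. With shares from estimated reads, 17 leading transcripts moved by more than their spread. The rule fixes the direction when a library is left out.

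At the gene level, the 1064 calls became 234 with the length offset and 676 at an adjusted P value under 0.05. With 1 library left out they were between 536 (without shNT replicate 1) and 1085 (without shNT replicate 2), with 600 without shARMC5 replicate 2 and 694 without shNT replicate 3. The 5 members called became 2 with the offset, 3 at 0.05, and between 2 and 5 with 1 library left out, with 2 without each of shARMC5 replicate 2, shNT replicate 1 and shNT replicate 3. The 108 usage calls became 12 with limma and between 81 and 160 with 1 library left out. The 14 members called became 3 with limma, 8 with transcripts of at least 1 estimated read and between 6 and 10 with 1 library left out, with 10 without shNT replicate 2 and 6 to 8 without any other. Pairs of transcripts with neither end apart fell from 30 to 13 when ends were compared at 20 bases. With a replicate block the calls were 1766 at the gene level and 69 for usage, 7 of them members. Same-numbered libraries had correlations of -0.03, -0.04 and 0.07 between their deviations, and differently numbered ones between -0.102 and 0.126. No pairing by number was seen in these correlations, and pairing at the gene level was not tested further. The causes of these changes were not tested where not stated.

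Most members had few reads, which limits the precision of their shares.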
